A study of Mus musculus with 2 samples.

Results

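Cycling deeper-zone chondrocytes were the cells of a mouse cartilage preparation that carried both the transcripts of cartilage below the joint surface and the transcripts of cell division. They were chosen from 2 droplet single-cell RNA libraries by counts of unique molecular identifiers (UMIs, 1 per captured transcript). A barcode had to hold 500 or more detected genes and 10% or less of mitochondrial UMIs, 20 or more UMIs of Col2a1, and at least 3 of the 6 zone genes Matn3, Col9a1, Epyc, Cnmd, Prkg2 and Fxyd2. It also had to hold 3 or more UMIs summed over the 8 cycle genes Top2a, Mki67, Cdk1, Cenpf, Birc5, Tpx2, Nusap1 and Ube2c. Of 15780 barcodes that passed the first filter, 112 met the rule, 107 in the pulse library and 5 in the trace library. They were compared with the deeper-zone cells of the same library that held 0 cycle UMIs, 488 in pulse and 168 in trace, called 0-cycle cells here. Another 120 pulse and 12 trace deeper-zone cells held 1 or 2 cycle UMIs and stood in neither class.

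Both groups were Procr-CreER;tdTomato mice given tamoxifen at 4 weeks of age, which makes Procr-expressing cells, and the cells that descend from them, carry the tdTomato reporter. Cells of the pulse group were taken 2 days later and those of the trace group 4 weeks later, each from 3 pooled mice and sequenced as 1 library. They were sorted as CD45-, Ter119-, CD31-, DAPI- and tdTomato+, a gate meant to leave out blood, vessel and dead cells. The extract protocol describes long bones as the source and names periosteum, the sheath around bone, beside the cartilage of the epiphysis, so cells of the periosteum may be in the libraries. No value has a replicate error, no barcode says which mouse a cell came from, and all intervals below are 95% intervals that cover counting error only.

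Growing cartilage gets its dividing cells from flat or columnar chondrocytes that make type II collagen, and these leave the cell cycle before they enlarge, switch on type X collagen and mineralize. At the joint surface a thinner layer of chondrocytes makes lubricin, the product of Prg4, instead. A dividing cell first copies its DNA, which needs licensing factors, nucleotides and new histones, and then separates the copies with a spindle, kinetochores and the anaphase-promoting complex.

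The libraries held 6863 pulse barcodes with 23306063 UMIs and 10423 trace barcodes with 40284041 UMIs. They shared 16 barcode sequences, and 0 of these belonged to a cycling deeper-zone cell. The sex-linked genes went with the groups, since pulse cycling cells held 131 UMIs of the Y-linked Ddx3y and 0 of Xist, and trace cycling cells held 0 and 49. Gm42418, a transcript that overlaps ribosomal RNA, stood at 6936 CPM (counts per 1000000 UMIs of the summed cells) in pulse cycling cells and at 59248 CPM in trace cycling cells. Chase time, age, sex and this transcript therefore cannot be told apart between the libraries.

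The label was checked first. Col2a1, the main cartilage collagen and part of the rule, stood at 27116 CPM in pulse cycling cells and 28282 CPM in pulse 0-cycle cells, and at 18623 and 13630 CPM in trace. The rule did not use the deeper-zone markers Ucma and Matn1, both cartilage matrix proteins. Ucma stood at 745 CPM in pulse cycling, 619 in pulse 0-cycle and 118 in pulse surface cells, and Matn1 at 61.9, 73.0 and 0.398 CPM, so cycling cells sat with the 0-cycle deeper-zone cells. In trace cycling cells Ucma stood at 263 CPM and Matn1 at 26.3 CPM (20 and 2 UMIs). The median cycling cell of pulse held all 6 zone genes, and the median 0-cycle cell 5. These genes belong to the rule and the cycling cells were deeper, so this count describes the classes and does not check the label. Markers of other lineages were mostly low in pulse cycling cells. All 7 myeloid markers, including Ptprc and Lyz2, were at 0 in pulse cycling cells, 4 of 6 neutrophil markers and 5 of 6 B-lineage markers were at 0, and 0 of 107 cells held 3 or more endothelial, mural, neutrophil, B-lineage, erythroid or myeloid markers. The 6 endothelial markers summed to 5.78 CPM, with Cdh5, Kdr and Cldn5 at 0, and the osteoblast list summed to 139 CPM, with Dmp1 at 0. For the osteoblast and the synovial lining lists, 1 of 107 cells each held 3 or more markers. The mural list summed to 33.0 CPM, against 15.5 CPM in pulse 0-cycle cells. The erythroid list summed to 5.78 against 0.555 CPM and the synovial lining list to 120 against 174 CPM in the same classes. The B-lineage list summed to 33.0 CPM, all from Ebf1, against 56.1 CPM in pulse 0-cycle cells. Superficial-zone markers were present in both classes, at 1347 CPM in cycling and 1921 CPM in 0-cycle cells. At least 3 of these 8 markers stood in 61 of 107 pulse cycling cells, 234 of 488 pulse 0-cycle cells, 5 of 5 trace cycling cells and 134 of 168 trace 0-cycle cells, so the rule did not separate cells free of superficial-zone transcripts. For Prg4 itself, 188 of the 336 UMIs in pulse cycling cells came from 1 cell, and 4 of the 107 cells held 5 or more.

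The share of deeper-zone cells that were cycling gives how many of these cells carried cycle transcripts soon after labelling and after the chase. In pulse it was 14.97% (107 of 715 cells, 12.4% to 17.8%, exact Clopper-Pearson interval), and in trace 2.70% (5 of 185 cells, 0.883% to 6.19%). The intervals did not overlap, and with 1 library a group the difference was not tested across animals. The deeper-zone cells themselves differed, with a median of 206 Col2a1 UMIs in pulse and 87 in trace. Superficial-zone markers summed to 1921 CPM in pulse and 6492 CPM in trace 0-cycle cells. Of the 5 trace cells, 1 also held osteoblast transcripts and 1 white blood cell transcripts, as described below. Because a threshold on UMIs moves with depth, each cell was also thinned to 3000 UMIs, which left out 47 pulse and 10 trace deeper-zone cells as shallower. Only the cycle UMIs were counted again after thinning, and the zone classes stayed as called at full depth. The shares were then 11.2% (8.93% to 13.9%) in pulse and 2.29% (0.626% to 5.75%) in trace. Among Prg4-rich surface cells, defined by 20 or more Prg4 UMIs and fewer than 3 zone genes, 0.189% (4 of 2117 cells) met the cycle criterion in pulse and 0.367% (18 of 4909 cells) in trace. Those cells were shallower, with medians of 3268 and 4599 UMIs against 7657 and 7426 in deeper-zone cells. Thinning left out 901 of the 2117 pulse and 1058 of the 4909 trace surface cells. The shares of surface cells were then 0.164% (2 of 1216 cells) and 0.234% (9 of 3851 cells). In both libraries the interval of deeper-zone cells lay above that of surface cells, before and after thinning.

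**Figure D1:**
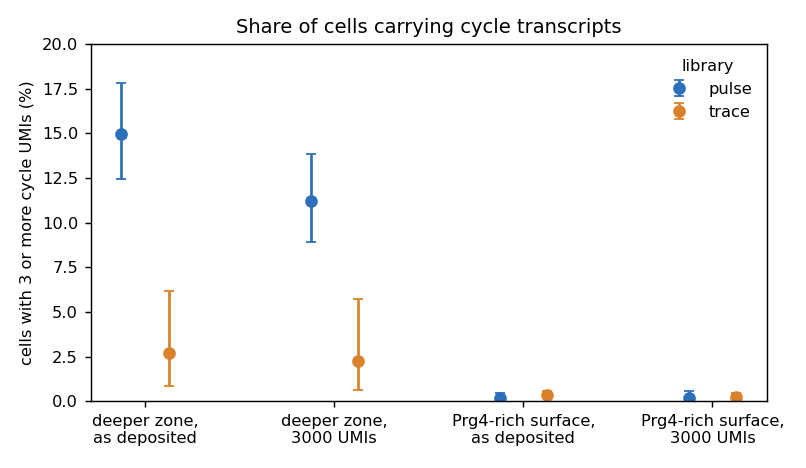
The share of cells with 3 or more cycle UMIs is plotted in percent for deeper-zone and Prg4-rich surface cells of the pulse (blue) and trace (orange) libraries, with and without thinning to 3000 UMIs, and bars give exact 95% binomial intervals. The pulse deeper-zone points, at 14.97% and 11.2%, stand above the others.

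Seen from all dividing cells, 107 of the 132 passing pulse cells that met the cycle criterion were deeper-zone cells (81.1%, 73.3% to 87.4%). In trace it was 5 of 156 (3.21%, 1.05% to 7.32%). Of the other 151 trace cells, 56 held 3 or more superficial-zone markers, 51 held 3 or more B-lineage markers and 40 held 3 or more neutrophil markers. Shares of all sorted cells depend on what the sort let through, and the classes overlap where a cell meets 2 lists.

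Within the cycling class the depth of cycle expression varied widely. The 107 pulse cells held 3 (lowest), 16 (median) and 68 (highest) cycle UMIs, and the 5 trace cells held 4, 14, 21, 23 and 71. Top2a, the topoisomerase that untangles copied DNA, gave 581 UMIs in pulse cycling cells (479 CPM), and Mki67, which coats mitotic chromosomes, gave 327 (270 CPM). Cdk1, the kinase that drives entry into mitosis, gave 186 UMIs (153 CPM) and Ube2c, an enzyme of the anaphase-promoting complex, 160 (132 CPM). These genes chose the cells, so the values are a description. At the border of the rule, the 16 pulse cells with exactly 2 cycle UMIs held medians of 3 replication-list UMIs and 2.5 mitotic-list UMIs, and the 15 cells with exactly 3 held 7 and 2.

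Most cycling cells carried transcripts of both DNA replication and mitosis. Of the 107 pulse cells, 80 held 3 or more UMIs of each of those lists, 10 of the replication list only, 11 of the mitotic list only and 6 of neither. Of the 488 pulse 0-cycle cells, 10 held both, 95 the replication list only and 28 the mitotic list only. All 5 trace cycling cells held both. Cycling cells were also deeper, with a median of 11565 UMIs against 6768 in pulse and 13495 against 7356 in trace, which raises counts per cell. Per cell in pulse, the replication list ran from 0 through a median of 12 to 71 UMIs, the mitotic list from 0 through 14 to 54, and histone transcripts from 0 through 26 to 493.

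**Figure D2:**
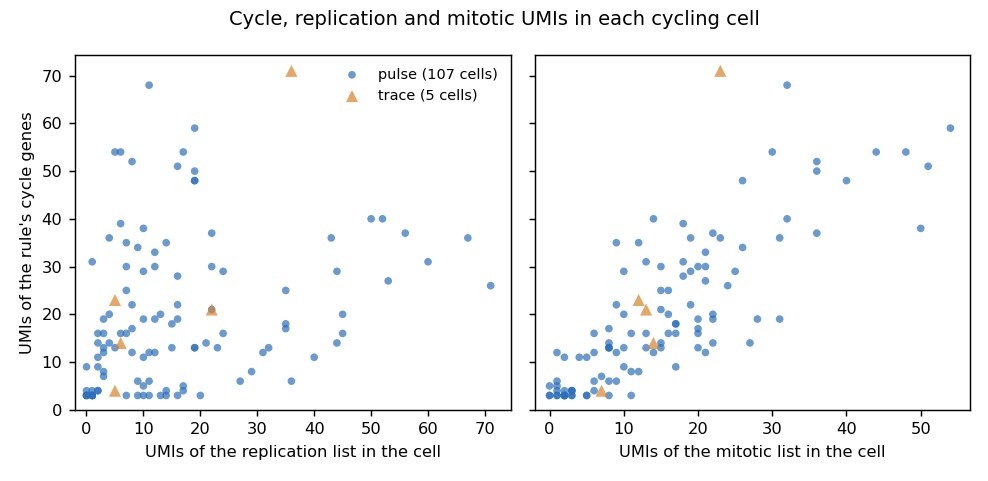
Each point is 1 cycling deeper-zone cell of pulse (blue circles, 107 cells) or trace (orange triangles, 5 cells), with UMIs of the rule's 8 cycle genes on the vertical axis and UMIs of the replication list (left) or the mitotic list (right) on the horizontal axis. Cells with 40 or more replication UMIs and cells with few of them both occur at intermediate cycle counts, and mitotic UMIs go up to 54.

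Over all genes, UMIs were summed over the cells of a class, and a gene counted as measured at 20 CPM or more in at least 1 class and as higher or lower past a 2-fold ratio. In pulse, 656 of 7000 measured genes were higher in cycling than in 0-cycle cells (9.37%) and 254 were lower (3.63%). Leaving the rule's own genes aside, 648 were higher, and 157 of these stood in 10 lists of cycle-related genes that hold 233 genes in all. The median log2 ratio over all measured genes was 0.00. Since the classes were cut from counts of the same cells, these ratios describe the classes and test nothing, and the shares of all genes are printed only as a background. Genes that reached 20 CPM only in the cycling class entered already higher there. Counts among the measured members of cycle-related lists therefore lean toward higher genes.

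Measured DNA replication genes were higher. Of the 31 members of the licensing and fork list 22 were measured, and all 22 passed 2-fold in pulse, with a median log2 ratio of 3.23. Pcna, the sliding clamp of the DNA polymerases, stood at 258 CPM in pulse cycling cells, 56.6 in pulse 0-cycle cells, 184 in trace cycling cells and 30.9 in trace 0-cycle cells. The pulse ratio was 4.56 (3.81 to 5.47) and the trace ratio 5.96 (3.00 to 11.2, 14 UMIs). Mcm3, a subunit of the replicative helicase, was 23.2-fold higher in pulse (12.4 to 48.3), and Pole, the leading-strand polymerase, 33.4-fold (12.2 to 128).

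Nucleotide supply moved with replication, with all 8 members of that list higher and a median log2 ratio of 3.83. Rrm2, a subunit of the enzyme that makes deoxyribonucleotides, stood at 228 CPM in pulse cycling cells against 15.8 in 0-cycle cells, a ratio of 14.4 (10.8 to 19.5). In trace it gave 10 UMIs in 5 cycling cells against 2 in 168 cells. All 9 measured repair and checkpoint genes were higher, with a median log2 ratio of 4.29, and Brca1, a repair factor at stalled forks, was 31.8-fold higher (16.6 to 68.2).

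The replication-dependent histone genes, which package newly made DNA, were also higher. Of 28 measured members, 25 were higher in pulse, with a median log2 ratio of 4.24. Hist1h2ap stood at 1031 CPM in cycling and 25.8 CPM in 0-cycle cells, a ratio of 39.9 (32.3 to 49.9), and Hist1h2ae at 744 against 7.77. Copies of these genes are near identical in sequence, so how reads were split between them is uncertain. Hist1h4i differed less, with 229 CPM in 0-cycle against 529 in cycling cells, a ratio of 2.31 (2.08 to 2.57), and missed 2-fold with 0-cycle cells weighted to the depths of the cycling cells (log2 0.80). In the list named chromatin proteins of dividing cells, 16 of 19 were higher, led by the histone chaperone gene Asf1b and by Stmn1. Stmn1, whose product destabilizes microtubules and is not itself a chromatin protein, stood at 204 against 3.33 CPM.

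Mitotic genes had larger median ratios than replication genes; the rule's own 8 genes are of this kind, and the 0-cycle cells were chosen for lacking them. All 21 measured mitotic kinases, cyclins and checkpoint genes were higher, with a median log2 ratio of 5.34, as were 20 of 21 kinetochore genes (median 4.97), 22 of 23 spindle and cytokinesis genes (5.33) and 9 of 10 condensin and cohesin genes (4.24). Ect2, which starts cytokinesis, gave 163 UMIs in pulse cycling cells and 0 in 0-cycle cells, at least 161-fold higher when the 0 is set to a floor of 3 UMIs over the class. Ckap2l, a spindle protein, gave 183 UMIs against 1, a ratio of 544 with an interval from 96.4 to 21599, and Hmmr, a spindle assembly factor, 155 against 1. Kif4, a chromosome-binding motor, was at least 95.1-fold higher (96 UMIs against 0), and Ccna2, the cyclin of S and G2 phase, at least 62.4-fold (63 against 0). Kinetochore genes Ndc80 and Spc25 stood at 93.2 and 104 CPM in cycling cells, from 2 UMIs each in 0-cycle cells. Ccnb1, cyclin B1, was less extreme, at 65.2 against 9.99 CPM, a ratio of 6.52 (4.35 to 9.96).

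The genes with the 15 highest ratios, ranked by the bound nearest 1, were Ect2, Ckap2l, Hmmr, Kif4, Pbk, Cenpe, Hist1h2ae, Esco2, Hist1h3c, Spc25, Ccna2, Kif11, Iqgap3, Ndc80 and Cdca8. All 15 stayed past 2-fold under every alternative in which they were recomputed for pulse. They were picked for their high ratios and every alternative kept a cut on cycle UMIs, so this could hardly have come out otherwise. In the 5 trace cells each of the 15 gave between 1 UMI (Spc25) and 14 UMIs (Kif11), and the 168 trace 0-cycle cells gave 0 to 2 UMIs of each.

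**Figure D3:**
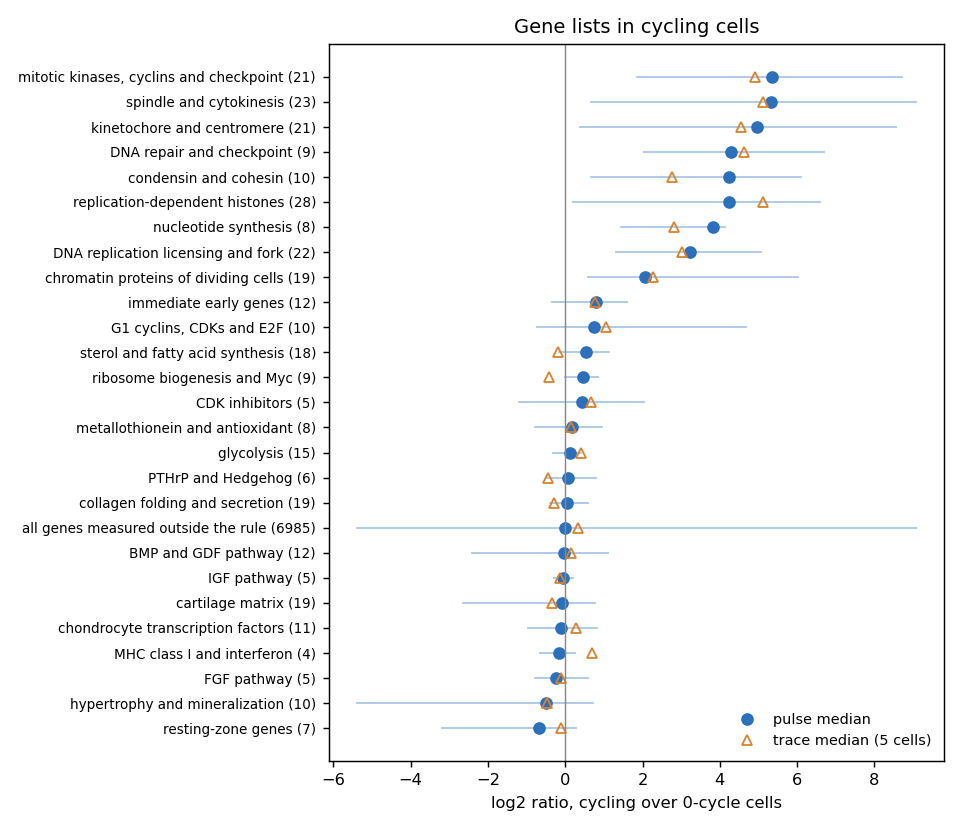
For each gene list (number of measured genes in pulse in brackets), the median log2 ratio of cycling over 0-cycle cells is shown for pulse (blue circle) and trace (orange triangle), and blue lines run from the lowest to the highest gene in pulse. The lists from replication to condensin and histones stand to the right, from 2.05 to 5.34 in pulse, and cartilage, signalling and metabolic lists lie near 0.

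The promoters of these genes were read because mitotic and replication genes are known to carry different elements near their start. The windows come from RefSeq on build GRCm38.p6, run from 250 bases before to 50 after a start, and are printed 5′ to 3′ on the gene's strand. Capitals mark, on either strand, the cell cycle gene homology region (CHR, searched as TTTGAA or TTCGAA), the CCAAT box (CCAAT) and E2F sites (TTTCCCGC, TTTGGCGC, TTTCGCGC or TTTGCCGC). Shown are 2 genes of the rule, the spindle gene Hmmr and the helicase gene Mcm3, all on the minus strand: Cdk1 at chr10:69352863-69353162, Top2a at chr11:99024140-99024439, Hmmr at chr11:40733388-40733687 and Mcm3 at chr1:20820263-20820562.
Cdk1: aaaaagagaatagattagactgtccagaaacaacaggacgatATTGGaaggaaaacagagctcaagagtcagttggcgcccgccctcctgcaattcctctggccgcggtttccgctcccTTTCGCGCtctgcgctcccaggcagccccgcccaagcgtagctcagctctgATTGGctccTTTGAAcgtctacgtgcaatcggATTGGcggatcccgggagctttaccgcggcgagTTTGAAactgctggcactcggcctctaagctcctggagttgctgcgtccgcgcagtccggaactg
Top2a: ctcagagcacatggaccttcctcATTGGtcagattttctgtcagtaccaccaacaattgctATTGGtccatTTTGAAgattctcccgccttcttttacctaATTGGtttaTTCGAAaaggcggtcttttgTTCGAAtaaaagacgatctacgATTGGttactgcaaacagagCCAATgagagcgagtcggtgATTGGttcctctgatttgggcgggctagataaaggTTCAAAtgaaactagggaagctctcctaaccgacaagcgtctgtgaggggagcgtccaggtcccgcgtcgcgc
Hmmr: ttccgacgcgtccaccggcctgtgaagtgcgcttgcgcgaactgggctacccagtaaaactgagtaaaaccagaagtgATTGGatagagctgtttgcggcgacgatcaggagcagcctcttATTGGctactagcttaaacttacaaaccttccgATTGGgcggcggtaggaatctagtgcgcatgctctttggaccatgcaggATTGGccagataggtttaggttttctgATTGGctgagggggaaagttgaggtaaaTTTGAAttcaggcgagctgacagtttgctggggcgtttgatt
Mcm3: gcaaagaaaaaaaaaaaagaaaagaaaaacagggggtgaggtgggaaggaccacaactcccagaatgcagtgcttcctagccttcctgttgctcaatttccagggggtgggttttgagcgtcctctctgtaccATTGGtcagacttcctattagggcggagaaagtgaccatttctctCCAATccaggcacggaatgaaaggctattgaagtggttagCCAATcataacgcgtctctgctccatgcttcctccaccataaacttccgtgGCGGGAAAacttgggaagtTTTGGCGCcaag

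The Cdk1 window held 2 CHR, 3 CCAAT and 1 E2F matches, the Top2a window 4, 6 and 0, the Hmmr window 1, 5 and 0 and the Mcm3 window 0, 3 and 2. Over all 32851 windows, 19.2% held a CHR match, 37.4% a CCAAT match and 2.26% an E2F match. Of the 26 windows of spindle and cytokinesis genes, 22 held a CHR match (84.6%), as did 11 of 17 for mitotic kinases and cyclins (64.7%) and 6 of 29 for replication genes (20.7%). E2F matches stood in 13 of 29 replication windows (44.8%), 1 of 26 spindle windows and 0 of 17 mitotic windows. Other lists did not follow this split. Of 10 condensin and cohesin windows 6 held a CHR and 4 an E2F match, of 7 nucleotide synthesis windows 0 held either, and of 8 ribosome biogenesis windows 4 held an E2F match although 0 of 9 measured genes of that list passed 2-fold. Cartilage matrix windows held a CHR match in 2 of 16 cases and an E2F match in 0. A match is a string of letters and not a measured binding site, and no window was found for the histone genes.

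Genes that gate the entry into the cycle differed less. Of 10 measured G1 cyclins, CDKs and E2F genes, 5 were higher in pulse and the median log2 ratio was 0.74. The E2F repressor gene E2f8 was 14.3-fold higher (9.09 to 23.6), whereas Ccnd1, cyclin D1, stood at 64.4 against 48.9 CPM, a ratio of 1.32 (0.996 to 1.73), and Ccnd2 at 18.2 against 30.3. Among CDK inhibitors, Cdkn2c (p18) was 4.11-fold higher (2.78 to 6.12) and Cdkn2d (p19) 3.09-fold (2.50 to 3.82). Cdkn1c (p57), the inhibitor that accompanies exit from the cycle in cartilage, stood at 158 CPM in pulse cycling and 361 CPM in pulse 0-cycle cells, 2.29-fold lower (1.96 to 2.68). With cells rich in Col10a1, Ibsp or Prg4 left out of both classes, its log2 ratio of -1.19 became -0.72 and no longer passed 2-fold. In trace it gave 1 UMI in the 5 cycling cells and 70 in the 168 cells of the 0-cycle class. Cdkn1a (p21) and Cdkn1b (p27) did not pass 2-fold, with ratios of 1.34 and 1.36.

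Cartilage identity was nearly the same in both pulse classes. Of 19 measured cartilage matrix genes outside the rule, 0 were 2-fold higher and 2 were lower (Cytl1 and Dcn), and the median log2 ratio was -0.08. Acan, the large cartilage proteoglycan, stood at 2789 CPM in pulse cycling, 3023 in pulse 0-cycle, 1670 in trace cycling and 2603 in trace 0-cycle cells. Sox9, the factor that sets chondrocyte fate, stood at 2391, 2111, 1736 and 1172 CPM in the same order. None of 11 measured chondrocyte transcription factors passed 2-fold in pulse. Small differences lay beyond counting error: Matn3 (matrilin 3) was 1.58-fold higher in pulse (2165 against 1372 CPM), Epyc (epiphycan) 1.58-fold (235 against 149) and Prelp 1.72-fold (618 against 360). Matn3 and Epyc belong to the rule's zone genes. Collagen folding and secretion genes also stayed in place, with 0 of 19 past 2-fold and a median log2 ratio of 0.05.

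**Figure D4:**
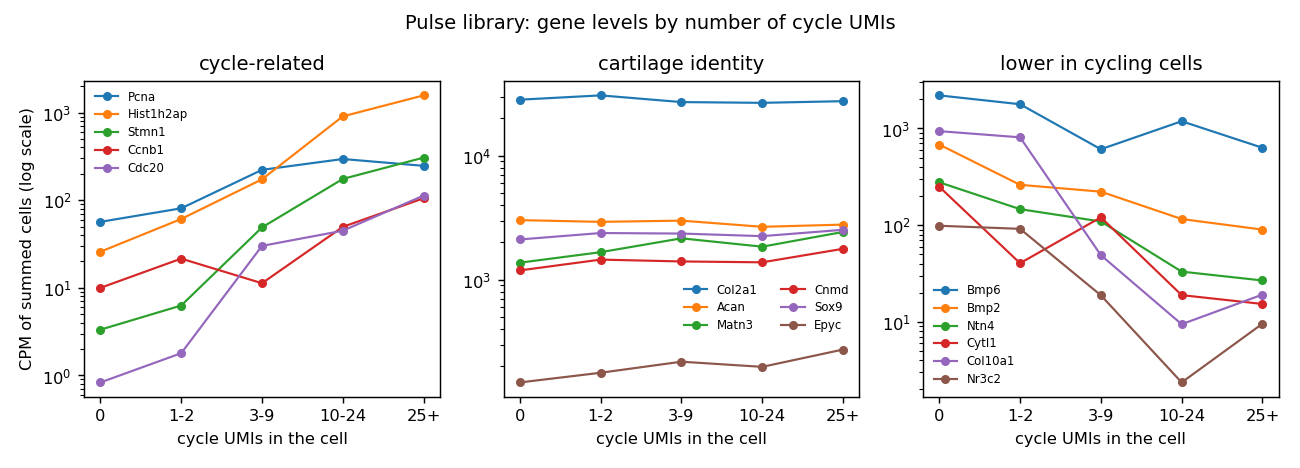
Pulse deeper-zone cells were grouped by their cycle UMIs (488, 120, 32, 39 and 36 cells from left to right), and the level of each gene in the summed cells is given in CPM on a log axis. Cycle-related genes are higher on the right than on the left (with a dip of Ccnb1 at 3 to 9 UMIs and of Pcna in the last bin), Col2a1, Acan and Sox9 stay level, and Bmp2 and Ntn4 go down, from 681 to 89.9 and from 277 to 26.8 CPM. Bmp6, Cytl1, Col10a1 and Nr3c2 end lower than they start but do not go down at each step.

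Across the 5 bins of cycle UMIs (0, 1 to 2, 3 to 9, 10 to 24, and 25 or more), the summed replication list stood at 211, 368, 1080, 1495 and 1632 CPM. The mitotic list stood at 122, 170, 553, 1306 and 1807 CPM and histones at 1396, 2005, 2705, 3941 and 6715 CPM. All 3 sums went up from bin to bin. The bins were cut on cycle UMIs of the same cells, so this direction was largely set by the binning. Median depths of the bins were 6768, 8766.5, 7291, 10430 and 15415.5 UMIs, and a cut on UMIs moves with depth. Col2a1 moved only between 26674 and 30633 CPM over the bins. Genes lower in cycling cells did not all go down in steps. Bmp6 stood at 2198, 1781, 610, 1188 and 631 CPM, and Col10a1 was still at 810 CPM at 1 to 2 cycle UMIs. Cdkn1c and Spp1 were higher at 1 to 2 cycle UMIs (532 and 534 CPM) than at 0 (361 and 216 CPM).

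Genes of hypertrophy and mineralization, the fate of chondrocytes that have left the cycle, held the lowest ratios of the pulse comparison, those of Col10a1 and Ibsp. Of 10 measured hypertrophy and mineralization genes, 0 were higher and 4 lower in pulse (40% lower, beside 3.64% over all genes measured outside the rule). Col10a1, the collagen of hypertrophic cartilage, stood at 22.3 CPM in pulse cycling and 938 CPM in pulse 0-cycle cells, 42.1-fold lower (28.9 to 64.0). In trace it gave 0 UMIs in the 5 cycling cells and 1154 in the 168 cells of the 0-cycle class. Of these, 558 came from 1 cell, so the 0 in 5 cells says little. Ibsp, a bone matrix protein, stood at 6.60 against 191 CPM in pulse, Spp1 (osteopontin) at 45.4 against 216 and Alpl, the phosphatase of mineralizing cells, at 50.3 against 121 CPM, a ratio whose log2 value of -1.27 became -0.35 under the restriction described next.

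These sums rested on few cells. In the pulse 0-cycle class 1302 of the 3380 Col10a1 UMIs came from 1 cell, 206 of the 687 Ibsp UMIs also came from 1 cell, and 48 of 488 cells held 5 or more Col10a1 UMIs (9.84%, 7.34% to 12.8%). Of the cycling cells 1 of 107 did (0.935%, 0.0237% to 5.10%), although these were the deeper cells. For 3 or more Ibsp UMIs the counts were 25 of 488 and 1 of 107, and for 5 or more Prg4 UMIs 47 of 488 and 4 of 107. In trace, Ibsp went the other way, with 30 of 168 0-cycle and 2 of 5 cycling cells. For Col10a1 the trace counts were 11 of 168 and 0 of 5, and for Prg4 26 of 168 and 0 of 5.

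The 15 lowest ratios belonged to Col10a1, Ibsp, Nr3c2, Cytl1, Bmp2, Ntn4, Glcci1, Rbp4, Serpine2, Spp1, Pank1, Prkg1, Nos2, Dlgap4 and Tnfrsf11b. With 0-cycle cells weighted to the depths of the cycling cells, 15 of the 15 stayed past 2-fold. The comparison was also repeated, as a choice made after seeing the data, with cells rich in Col10a1 (5 or more UMIs), Ibsp (3 or more) or Prg4 (5 or more) left out of both classes, 6 of 107 and 92 of 488. Then 10 of the 15 stayed past 2-fold. The other 5 were Col10a1 and Ibsp, on which the restriction acts directly, and Cytl1 (log2 ratio -0.78), Serpine2 (-0.82) and Nos2 (-0.46). With the restriction on the 0-cycle cells alone, 7 of the 15 stayed past 2-fold, and Ibsp (1.35), Nos2 (0.78) and Serpine2 (0.26) turned to a higher value. Nr3c2, the mineralocorticoid receptor, kept its ratio under both restrictions. Its 11 UMIs in 107 cycling cells against 355 in 488 cells gave 9.08 and 98.5 CPM, 10.9-fold lower (5.995 to 22.0), a log2 ratio of -3.44 that was -3.26 with both classes restricted and -3.38 with the 0-cycle cells alone restricted.

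Ntn4, a netrin of basement membranes, stood at 47.0 CPM in pulse cycling, 277 in pulse 0-cycle, 39.5 in trace cycling (3 UMIs) and 110 in trace 0-cycle cells, and was 5.90-fold lower in pulse (4.51 to 7.84). Over the bins of cycle UMIs it went from 277 through 146, 109 and 33.1 to 26.8 CPM. Glcci1, a glucocorticoid-induced transcript, was 6.85-fold lower, Pank1, a pantothenate kinase of coenzyme A synthesis, 5.35-fold and Tnfrsf11b, the decoy receptor osteoprotegerin, 3.73-fold (3.00 to 4.68). Tnfrsf11b gave 2 UMIs in the 5 trace cycling cells and 488 UMIs in the 168 cells of the trace 0-cycle class. Of the 254 genes lower in pulse, 199 were measured in trace, where 53 were lower (26.6%) and 41 higher (20.6%) past 2-fold, beside 10.6% lower and 26.6% higher over all genes measured in trace. Of the 648 higher in pulse, 370 were measured in trace, where 288 were higher (77.8%) and 5 lower (1.35%). The same cycle genes cut the classes in both libraries, so the trace counts are no separate test of the pulse ones.

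**Figure D5:**
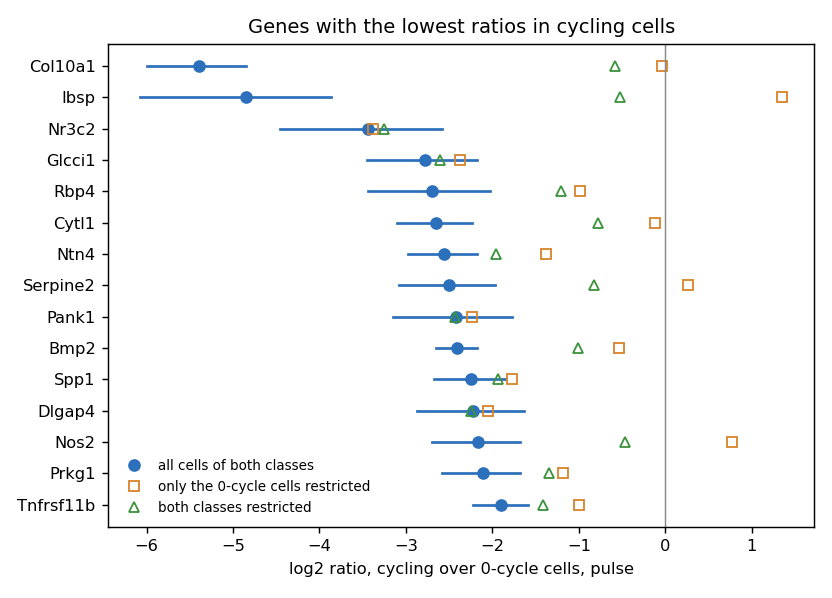
The 15 genes with the lowest pulse ratios are shown on a log2 scale, with 95% counting intervals for all cells (blue), with cells rich in Col10a1, Ibsp or Prg4 left out of the 0-cycle class only (orange squares) and left out of both classes (green triangles). Nr3c2, Glcci1, Pank1, Dlgap4 and Spp1 keep their place, and Col10a1, Ibsp, Cytl1, Nos2 and Serpine2 move toward or past 0.

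Both BMP ligands that passed 2-fold were lower in cycling cells. Bmp6 stood at 821 CPM in pulse cycling, 2198 in pulse 0-cycle, 566 in trace cycling and 1023 in trace 0-cycle cells, and was 2.68-fold lower in pulse (2.51 to 2.86). Bmp2 stood at 128 against 681 CPM in pulse, 5.33-fold lower (4.53 to 6.31), and the restriction of both classes brought its log2 ratio from -2.41 to -1.01. With the 0-cycle cells alone restricted it was -0.53, short of 2-fold. In trace all 32 Bmp2 UMIs of the cycling class came from 1 cell. Of the inhibitors of differentiation that BMP signalling induces, Id3 was 2.16-fold higher (1.77 to 2.62) and Id1 1.91-fold (1.51 to 2.42). Id3 fell just short of 2-fold with each cell weighted alike (log2 0.94) and without the 5% highest doublet scores (0.997). Of the 12 measured pathway genes, 1 was higher (8.33%) and 2 were lower (16.7%), and the median log2 ratio was -0.02. Over all genes measured outside the rule, 9.28% were higher and 3.64% lower.

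Other growth pathways showed no member past 2-fold in pulse. In the parathyroid hormone-related protein and Hedgehog list this held for 6 of 6 genes, with Ptch1, the Hedgehog receptor and target, at a ratio of 1.73 (1.45 to 2.06) and Pth1r, the receptor of the parathyroid hormone family, at 0.705 (0.581 to 0.852). Among FGF receptors, Fgfr3, known as a brake on chondrocyte division, stood at 193 against 134 CPM, a ratio of 1.44 (1.22 to 1.68), and Fgfr1 at 276 against 476, a ratio of 0.578 (0.513 to 0.651). None of the 5 measured FGF genes and none of the 5 IGF genes passed 2-fold. In the list of resting-zone genes, 3 of 7 were lower (42.9%, beside 3.64% over all genes measured outside the rule). These were Cd200 (4.95 against 45.2 CPM), Wif1, a Wnt inhibitor (17.3 against 47.7), and Apoe (13.2 against 32.2), each from fewer than 25 UMIs in cycling cells. The Wif1 log2 ratio of -1.46 became -0.23 with the restriction on the 0-cycle cells alone. That of Apoe, -1.29, missed 2-fold with depth weighting (-0.31) and under both restrictions (-0.86 and -0.83), and only Cd200 passed 2-fold in each of these.

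Immediate early genes, which respond within minutes to growth factors and also to tissue dissociation, were higher for 4 of 12 members in pulse. That was 33.3%, beside 9.28% higher over all genes measured outside the rule. Fos stood at 750 CPM in pulse cycling and 249 in pulse 0-cycle cells, a ratio of 3.01 (2.74 to 3.30), and at 1052 and 396 CPM in trace, where 64 of the 80 UMIs came from 1 cell. Junb, Egr1 and Zfp36 had pulse ratios of 2.37, 2.19 and 2.67, and that of Egr1 missed 2-fold without the 5% highest doublet scores (log2 0.90), with both classes restricted (0.87) and with each cell weighted alike (0.86). How far handling of the cells had a part in these values was not tested. Sterol and fatty acid synthesis genes had a median log2 ratio of 0.53, and 3 of 18 passed 2-fold (16.7%, beside the same 9.28%). These were Elovl6, which lengthens fatty acids (2.19), and Lss (2.06) and Idi1 (2.00), both of the sterol route. Idi1 missed 2-fold without the 5% highest doublet scores (log2 0.88) and with depth weighting (0.98). Lss missed it with the 0-cycle cells alone restricted (0.89) and with both classes restricted (0.93). Ribosome biogenesis genes had a median of 0.47 with 0 of 9 past 2-fold, and glycolysis genes 0.11 with 0 of 15, among them Ldha, lactate dehydrogenase, at 1.34 (1.24 to 1.45). Neither the 8 metallothionein and antioxidant genes nor the 4 MHC class I and interferon genes had a member past 2-fold.

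The 5 trace cycling cells were few enough to be described singly. In trace, 1819 of 6833 measured genes were higher in cycling than in 0-cycle cells (26.6%) and 725 lower (10.6%), with a median log2 ratio of 0.34 over all genes. At 76036 UMIs in the class, 1 UMI is 13.2 CPM, and with ratios divided by their median the counts were 1369 higher and 1207 lower, 53.1% higher instead of 71.5%. All 16 measured replication genes, 9 of 10 mitotic genes and 17 of 18 spindle genes were higher, with medians of 3.01, 4.92 and 5.13. The full lists held 31, 22 and 24 genes. The same 8 cycle genes cut the classes in both libraries, so the direction of these lists was largely set by the rule.

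Trace cell 1 had 24872 UMIs, 71 of cycle genes, 752 of Col2a1 and 29 of Matn3, and it also held 230 of the 231 Col1a1 UMIs, 79 of the 88 Ibsp UMIs and 77 of the 78 Spp1 UMIs of the class. Trace cell 4 had 17597 UMIs with 147 of Col2a1 and also 8 of the pan-leukocyte gene Ptprc, 13 of Tyrobp, 10 of Lyz2 and 16 of Plac8. Cells 2, 3 and 5 had 12194, 13495 and 7878 UMIs, 250, 208 and 59 Col2a1 UMIs, 23, 21 and 4 cycle UMIs and none of Ptprc, Tyrobp, Lyz2, Plac8, Col1a1 or Ibsp. They held 13, 3 and 12 UMIs of Matn3 and 23, 34 and 18 of Cnmd (chondromodulin). None of the 5 was among the 5% of trace cells with the highest Scrublet doublet scores, and the part of doublets or of RNA from other cells in cells 1 and 4 was not tested.

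Between the libraries, 1289 of 7515 measured genes were higher in trace than in pulse cycling cells (17.2%) and 1337 lower (17.8%). With ribosomal RNA-associated transcripts such as Gm42418 left out, 1494 were higher and 1134 lower. The lists were not counted again in that setting. Several cycle lists held more lower than higher genes in trace. This was so for replication (2 of 24 higher and 8 lower, median log2 ratio -0.51), nucleotide synthesis (0 of 8 and 4, -0.91), repair (0 of 10 and 3, -0.15), kinetochore (0 of 21 and 7, -0.58), mitotic (0 of 21 and 5, -0.28), spindle (0 of 23 and 5, -0.27), condensin and cohesin (0 of 11 and 3, -0.60) and histone genes (6 of 32 and 10, median 0.20). The chromatin list had 2 of 20 in each direction (-0.27). The shares of lower genes in the mitotic (23.8%) and spindle (21.7%) lists lay near the 17.8% of all genes. Apart from Xist, the 9 highest genes were Ifi27l2a, Col1a1, Ibsp, Rgs1, Lyz2, Plac8, Slc8a1, Ptprc and Tmsb4x, and most of them rested on 1 cell each: Col1a1 and Ibsp on cell 1, Rgs1, Lyz2, Plac8 and Ptprc on cell 4, and 29 of 29 Ifi27l2a and 166 of 177 Tmsb4x UMIs on a single cell. Without cell 1 the Col1a1 log2 ratio went from 7.15 to -0.13.

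Of the 10 genes lowest in trace, 9 also stood lower in trace than in pulse 0-cycle cells, all but Mmp3. Ppa1, a pyrophosphatase, stood at 1262 CPM in pulse cycling and 13.2 in trace cycling cells (1 UMI), and at 982 and 350 CPM in the 0-cycle cells. Scd2, a fatty acid desaturase, stood at 874 and 39.5 CPM (3 UMIs) in cycling cells and at 543 and 45.2 CPM in 0-cycle cells. Mt1, a metallothionein, was 8.26-fold lower (6.79 to 10.2), at 10869 and 1315 CPM in cycling cells and 8616 and 672 CPM in 0-cycle cells. Of 18 sterol and fatty acid synthesis genes, 11 were lower in trace cycling cells and 0 higher, with a median log2 ratio of -1.26. Of the other 7 lowest genes, Hist1h4i and Scd1 gave 1 UMI each in the trace cycling cells (641 and 404 in pulse), and Hist1h4i stood at 229 and 15.1 CPM in the 0-cycle cells. From the same 7, Ndufa4l2, C1qtnf3, Hspb1, Mmp3 and Creb5 gave 0 (388, 349, 295, 291 and 283 in pulse). For Mmp3, a matrix protease, 122 of the 291 pulse UMIs came from 1 cell, and its level in 0-cycle cells was 129 CPM for the pulse library against 374 CPM for the trace library. The library, chase time, age and sex go together here, so their parts cannot be told apart.

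The reporter transcript was sparse in all classes. Tdtomato gave 0.280 UMIs per cell (0.189 to 0.400) in pulse cycling cells, 0.217 (0.178 to 0.263) in pulse 0-cycle cells and 0.126 (0.111 to 0.142) in pulse surface cells. The 39 pulse cells with 3 or more endothelial markers gave 0.282 (0.141 to 0.505). Median depths were 11565, 6768, 3268 and 2444 UMIs in this order, and the interval of cycling cells overlapped that of the endothelial-marker cells. Scaled to depth, the reporter stood at 24.8 CPM in pulse cycling and 29.4 CPM in pulse 0-cycle cells, a ratio of 0.841 (0.541 to 1.27). In trace the 5 cycling cells held 6 UMIs, in cells 2, 3 and 5, and 0-cycle cells held 0.589 per cell (0.479 to 0.717). Procr, the gene that drives the recombinase, gave 7 UMIs in 107 pulse cycling cells, 7 in 488 pulse 0-cycle cells and 0 in the 5 trace cells.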

How the data were processed

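The deposited matrices hold UMI counts per gene and cell barcode as the authors filtered them. Per the labels' protocols the cells were sorted by flow cytometry and run with a 3' V2 droplet kit. The counts were made with Cell Ranger, version 7.1.0 per the file headers and 3.0.1 per the submitters' processing notes, which name mm10, so the version is unsettled. The notes also list STAR, HTSeq, Seurat and DESeq2 with no role. The other deposited columns hold gene identifiers and barcodes, used only as labels. The annotation and the counting of antisense or overlapping genes were not stated in the sources.

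Cells were filtered and classed by the rule in the report, raw UMIs were summed per class, and counts per 1000000 UMIs (CPM) and ratios were computed, with exact conditional Poisson intervals for ratios and exact Clopper-Pearson intervals for shares (scipy 1.17.1 and numpy 2.4.6 under Python 3.11.15, with scanpy 1.11.5 for Scrublet and pandas 2.3.3). The 2 libraries hold 32286 features each. Barcodes below the filter were left out, 330 in pulse and 1176 in trace. PCR errors and pooled animals are not covered by the intervals. With 1 library per group and no map from cells to mice there was no test and no p-value. A 0 was set to a floor of 3 UMIs over the class for bounds. Scrublet's own threshold marked 0 cells, so the 5% of cells with the highest scores were removed only as an alternative, and doublets stayed in otherwise. Cells with between 1 and 2 cycle UMIs stood in no class.

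Named genes were the rule's genes, the 15 highest and 15 lowest pulse ratios at 50 CPM or more ranked by the interval bound nearest 1, the 10 highest and 10 lowest of trace over pulse, up to 4 members of each of 26 gene lists with the largest ratios, and a few fixed genes. Predicted gene models and genes of mitochondria, ribosomal proteins, haemoglobin or immunoglobulins were left unranked. Other list members are given as examples and were chosen after their values were seen. The members, lists and rules were chosen with earlier results of these data known. Tested on simulated pulse counts of 6118 genes, the 2-fold call found 67 of 67 genes set to 3-fold and 0 of 67 set to 1.5-fold, and called 9 of 5862 unaltered genes. On simulated trace counts of 5345 genes it found 57 of 67 at 3-fold and called 828 of 5045 unaltered genes. The simulated class sums held counting error only and no spread between cells. They therefore do not give the error rate of calls in these data, where some sums rest on few cells. Alternatives changed the cell filters, cycle and Col2a1 thresholds, CPM floor, depth weighting, scaling and the cells compared. Promoter windows were matched by symbol to RefSeq on GRCm38.p6, and those without a window were left out.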

Additional observations from a re-analysis of the deposited data

Results flagged for a closer look

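Spp1, which encodes osteopontin of bone and of hypertrophic cartilage, stood on opposite sides in the libraries. Its log2 ratio of cycling over 0-cycle deeper-zone cells was -2.25 in pulse and 1.41 in trace. In trace, 77 of the 78 Spp1 UMIs of the cycling class came from the cell that also held the Col1a1 and Ibsp transcripts, and in pulse 55 UMIs came from 13 of 107 cells. With 1 library a group the difference between the libraries was not tested.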

How the results depend on the processing

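No paired analysis was possible because each group is 1 library. Of the values that answer a comparison, 76 recomputed under an alternative stayed close and 14 moved further, beyond the binomial interval for a share and beyond 1.5 times for a count of genes. The pulse share of cycling cells was 12.0% at 5 or more cycle UMIs and 11.2% after thinning. At a floor of 10 CPM the pulse counts were 1001 higher and 442 lower genes, and 306 and 113 at 50 CPM. In trace, 3230 were higher at 10 CPM, and 979 higher and 427 lower at 50 CPM. Dividing by the median ratio gave 1207 lower in trace, and leaving cells rich in Col10a1, Ibsp or Prg4 out of both classes, which kept 3 trace cycling cells, gave 3014 higher and 465 lower. For trace over pulse, 2759 were higher at 10 CPM and 745 at 50 CPM, and the share of higher genes among those called went from 49.1% to 61.4% without the cell with osteoblast transcripts. Of 138 pulse gene values, 9 changed sign under at least 1 alternative. Of these, 5 were within 2-fold to start with (B2m, Chad, Col1a1, Prg4 and Scd1), with Prg4 at 2.88 when only the 0-cycle cells were restricted. The other 4 had passed 2-fold and turned with only the 0-cycle cells restricted, an alternative added after seeing the data: Dcn (log2 0.45), Ibsp (1.35), Nos2 (0.78) and Serpine2 (0.26). A further count, of values past 2-fold that missed it in the same direction under any alternative, came to 18 of 79. Of 27 trace over pulse values, Prg4 reversed without the 5% highest Scrublet scores (1.44) and Col1a1 without the osteoblast-transcript cell (-0.13). The cause of these shifts was not tested, other than that 230 of the 231 Col1a1 UMIs lay in the cell left out. With 76036 UMIs in the trace class, genes near the floor of 20 CPM rest on 1 or 2 UMIs.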
